A study of Homo sapiens with 43 samples.

Results

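The interferon receptor chains IFNAR1, IFNAR2, IFNGR1 and IFNGR2 and the kinases JAK1, JAK2 and TYK2 were followed through RNA sequencing of the human lung cancer line H2087 and the human breast cancer line HCC1954. The genes were picked by symbol, and all 7 had a row in all 4 tables, among 18075 genes that the tables of both lines share. They were put together because IFNAR2 was lower in the derivatives than in the parental cells in every comparison, so the values of derivatives against parental cells are given below as a description with no test. Each line was studied as latency-competent cell derivatives (LCC), which per the labels were recovered from organs without a bioluminescence signal (of mice, for HCC1954), and as the parental line. H2087 had 6 LCC derivatives with 1 library each and 2 parental libraries per medium. HCC1954 had the derivatives LCC2 and LCC1 with 2 libraries each and 3 parental libraries per medium. Cells grew for 48 h, below confluence, in mitogen-low medium (MLM) or mitogen-rich medium (MRM), and total RNA was sequenced. Each derivative is a single line, and nothing in the labels says that libraries of one name are separate cultures, so the p-values below rest on the spread among these libraries, which may be technical.

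Type I interferons bind a receptor made of IFNAR1, which carries the kinase TYK2, and IFNAR2, which carries JAK1. Interferon gamma binds IFNGR1, the ligand-binding chain associated with JAK1, and IFNGR2, the accessory chain associated with JAK2. The kinases phosphorylate the receptor tails and the STAT proteins, which then enter the nucleus and switch on interferon-stimulated genes. JAK1, JAK2 and TYK2 also serve the receptors of many cytokines, such as those of the IL6 and IL10 families. IFNAR2, IL10RB, IFNAR1 and IFNGR2 lie next to each other on chromosome 21.

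The promoter windows of the members that moved together between the HCC1954 derivatives are shown first. They are from RefSeq (GRCh38.p14), run from 250 bases before to 50 after an annotated start, and are written 5′ to 3′ on the gene's strand. Capitals mark a GC box, GGGCGG on either strand, a motif of many housekeeping promoters, which 44.9% of the 34796 windows of the table hold. IFNAR1 has a window with 0 GC boxes at chr21:33324145-33324444 and another with 3 GC boxes at chr21:33324720-33325019, both on the plus strand. IFNGR2 has a window with 5 at chr21:33403163-33403462 on the plus strand, and TYK2 one with 0 at chr19:10380523-10380822 on the minus strand.
IFNAR1, upstream start: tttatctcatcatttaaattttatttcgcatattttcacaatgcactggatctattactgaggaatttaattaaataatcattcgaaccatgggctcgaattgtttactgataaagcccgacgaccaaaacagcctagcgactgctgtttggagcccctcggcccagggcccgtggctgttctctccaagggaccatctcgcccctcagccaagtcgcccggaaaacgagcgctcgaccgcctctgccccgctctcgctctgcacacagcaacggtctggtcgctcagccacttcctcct
IFNAR1, downstream start: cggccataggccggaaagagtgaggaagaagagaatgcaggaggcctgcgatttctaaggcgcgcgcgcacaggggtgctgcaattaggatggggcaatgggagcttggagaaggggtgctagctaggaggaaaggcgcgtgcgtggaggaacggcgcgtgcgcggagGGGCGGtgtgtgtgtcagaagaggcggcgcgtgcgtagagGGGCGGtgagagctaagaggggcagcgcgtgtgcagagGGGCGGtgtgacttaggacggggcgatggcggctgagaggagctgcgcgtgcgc
IFNGR2: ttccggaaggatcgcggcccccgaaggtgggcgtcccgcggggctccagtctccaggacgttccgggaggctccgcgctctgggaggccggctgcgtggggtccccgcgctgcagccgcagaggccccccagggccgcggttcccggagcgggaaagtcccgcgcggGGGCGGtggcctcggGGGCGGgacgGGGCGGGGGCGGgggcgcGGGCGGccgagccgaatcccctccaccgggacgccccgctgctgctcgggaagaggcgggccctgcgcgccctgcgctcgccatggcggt
TYK2: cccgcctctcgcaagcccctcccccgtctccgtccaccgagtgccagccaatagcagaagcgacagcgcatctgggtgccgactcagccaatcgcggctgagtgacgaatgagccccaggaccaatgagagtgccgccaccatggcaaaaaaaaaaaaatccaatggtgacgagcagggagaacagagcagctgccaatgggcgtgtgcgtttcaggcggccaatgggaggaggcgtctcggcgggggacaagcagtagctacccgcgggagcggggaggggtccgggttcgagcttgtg
The IFNGR2 window is 80% G or C, the TYK2 window 63%, and the IFNAR1 windows 51.3% and 65.7%, against a median of 58.7% over the table. The windows of IFNAR1, IFNGR1, IFNGR2, JAK1, JAK2 and TYK2 did not hold the ISRE core GAAANNGAA, found in 8.11% of all windows on either strand, whose letters cannot lie within a GC box. IFNAR2 is named only.

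Depth ran from 44649263 to 55653300 reads in H2087 MLM, 12131848 to 20847987 reads in H2087 MRM, 24852118 to 28119596 reads in HCC1954 MLM and 28799407 to 44705518 reads in HCC1954 MRM, so depth differs with the medium and cannot be told apart from it. The lowest read number behind any member's value was 67, for JAK2 in an H2087 parental MRM library. Some libraries stood close to or apart from others. The chi-square per gene between libraries was 6.93 for H2087 LCC5 and LCC6 in MRM, against 25.9 or more for either with LCC1 to LCC4, and 2.63 and 3.85 within the H2087 parental pairs in MLM and MRM. HCC1954 parental library 3 in MLM differed from the other two by 62.9 and 63.1, against 7.57 between those, and LCC1 library 2 in MRM differed from library 1 by 115.5. Markers of epithelium (3 of 3) had a mean of at least 10 in every group. Of the lung markers, 4 of the 5 in the tables reached 10 in H2087, while the lung surfactant gene SFTPC stayed below 10; 3 or 4 of the 5 also reached 10 in the groups of HCC1954. The 6 markers of HER2-amplified breast cancer reached 10 in HCC1954, except TFAP2B in its LCC cells, and 5 of them also did in H2087. The T cell gene CD3E and the fibroblast genes DCN and LUM were below 10 in every group, but other genes of their lists were not. Of the 5 blood markers 1 or 2 reached 10 in each group, and of the 6 fibroblast markers 1 to 3. All 4 endothelium markers reached 10 in every HCC1954 group, and 1 to 3 of them in the groups of H2087.

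IFNAR2, the signalling chain of the type I interferon receptor, was lower in LCC than in parental cells of both lines and in both media. In H2087 MLM the LCC libraries LCC1 to LCC6 had 509, 449, 456, 440, 426 and 437 normalized counts (reads divided by the library's size factor), against 907 and 917 in the parental libraries. The 6 LCC values lay within a narrow band far below both parental values. In H2087 MRM they had 712, 606, 593, 713, 633 and 634 normalized counts, against 901 and 938. The mean was 452.9 ± 29.4 in LCC and 911.9 ± 6.6 in parental cells in MLM, and 648.7 ± 52.1 and 919.8 ± 26.0 in MRM (SD, n = 6 and 2). The log2 difference was -1.01 ± 0.09 in MLM and -0.51 ± 0.11 in MRM (standard error), or 0.497 and 0.705 of the parental mean. In these bulk libraries fewer cells expressing a gene and less RNA per cell cannot be told apart.

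In HCC1954 MLM, IFNAR2 had 671 and 705 normalized counts in LCC2 and 378 and 379 in LCC1, against 1004, 1046 and 1261 in the parental libraries. In HCC1954 MRM it had 882 and 950 in LCC2 and 574 and 552 in LCC1, against 1396, 1482 and 1367. The groups did not overlap in either medium, and LCC1 was the lowest in both. The log2 difference of all 4 LCC libraries from the parental ones was -1.10 ± 0.26 in MLM and -0.98 ± 0.21 in MRM. Here the 4 LCC libraries come from 2 derivatives, so the standard error treats libraries of one line as independent. Without parental library 3 the MLM difference was -1.0, and without LCC1 library 2 the MRM difference was -0.85.

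Among 11565 genes tested in all 4 comparisons, 111 had every LCC library below every parental library in all of them, 0.96%, and IFNAR2 is one of these by its choice. Within H2087 its levels ordered as LCC in MLM, then LCC in MRM, then parental cells, whose MLM and MRM values overlapped. Within HCC1954 they ordered from LCC1 in MLM over LCC1 in MRM, LCC2 in MLM, LCC2 in MRM and parental in MLM to parental in MRM, and no neighbouring pair overlapped. Gene-level counts pool the IFNAR2 isoforms, and RefSeq lists a readthrough transcript with IL10RB, so reads of both genes cannot be fully told apart.

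**Figure D1:**
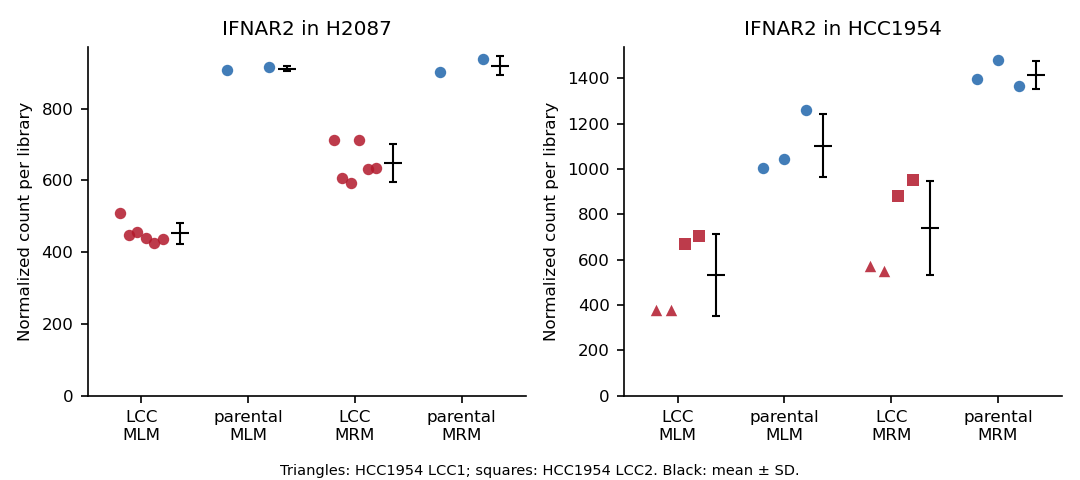
IFNAR2 normalized counts of each library (y axis) in H2087 and HCC1954, by cell type and medium (x axis), with triangles for HCC1954 LCC1, squares for LCC2, and black bars for the mean ± SD. Every LCC point lies below every parental point of its line and medium; in H2087 the LCC points in MLM, 426 to 509, lie below those in MRM, 593 to 713.

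IFNAR1, the other chain of that receptor, was close to parental in H2087 and well below it in HCC1954. In H2087 MLM the LCC libraries had 1612 to 1730 normalized counts, median 1667, against 1882 and 1907 in the parental libraries, a log2 difference of -0.19 ± 0.05. In H2087 MRM they had 1863 to 2856, median 1969, against 1991 and 2030, a difference of 0.05 ± 0.15 (-0.04 when scaled to equal library totals), with LCC4 alone at 2856. The groups did not overlap in MLM and did in MRM. In HCC1954 MLM, IFNAR1 had 2491 and 2589 in LCC2 and 1283 and 1433 in LCC1, against 3639, 3291 and 3661 in parental cells, a difference of -0.93 ± 0.27. In HCC1954 MRM it had 3439 and 3379 in LCC2 and 1876 and 1822 in LCC1, against 3774, 3769 and 4122, a difference of -0.63 ± 0.26. Every LCC library was below every parental one in both media of HCC1954.

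IFNGR1, the chain that binds interferon gamma, had no common direction. In H2087 MLM the LCC libraries had 955 to 1144 normalized counts, median 1048, against 930 and 939 in the parental ones (log2 difference 0.17 ± 0.09). In H2087 MRM they had 1600 to 2163, median 1826, against 2032 and 2250 (-0.21 ± 0.11). Both groups of H2087 were thus near each other within a medium and far apart between media. In HCC1954 MLM, IFNGR1 had 1510 and 1604 in LCC2 and 1653 and 1609 in LCC1, against 2265, 2300 and 2038 (-0.46 ± 0.08). In HCC1954 MRM it had 2111 and 2121 in LCC2 and 2134 and 1418 in LCC1, against 1932, 1823 and 1944 (0.02 ± 0.16). The groups were separate in MLM, and in MRM 3 of the 4 LCC libraries lay above the parental cells while LCC1 library 2 lay below.

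IFNGR2, the accessory chain, was lower in HCC1954 LCC. In H2087 it had 1459 to 1860 normalized counts in LCC in MLM, against 1460 and 1551 in parental cells (log2 difference 0.14 ± 0.10), and 1299 to 1848 in MRM, against 1982 and 1928 (-0.36 ± 0.16). In HCC1954 MLM it had 1694 and 1652 in LCC2 and 1068 and 969 in LCC1, against 2186, 2080 and 1613 (-0.57 ± 0.23), where parental library 3, at 1613, lay below both LCC2 libraries. Without that library the difference was -0.71 and the groups were separate. In HCC1954 MRM it had 1704 and 1804 in LCC2 and 1178 and 976 in LCC1, against 2198, 2269 and 2262 (-0.71 ± 0.22).

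The kinases were close to parental levels in H2087 and lower in HCC1954 LCC. JAK1 had 2694 to 3501 normalized counts in H2087 LCC in MLM, against 2979 and 2985 in parental cells (0.01 ± 0.11), and 2367 to 3026 in MRM, against 2717 and 2446 (0.03 ± 0.11). With values scaled to equal library totals these became -0.05 and -0.06. In HCC1954 MLM, JAK1 had 3029 and 2748 in LCC2 and 4058 and 4298 in LCC1, against 4881, 4559 and 4797 (-0.45 ± 0.17), and in MRM 3044 and 3008 in LCC2 and 3373 and 3350 in LCC1, against 4847, 4800 and 5046 (-0.62 ± 0.08). JAK1 was the one member for which LCC2 lay farther below the parental cells than LCC1 in both media.

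JAK2, the kinase of IFNGR2, had 189 to 227 normalized counts in H2087 LCC in MLM, against 229 and 235 in parental cells (-0.20 ± 0.12), and 143 to 210 in MRM, against 185 and 158 (-0.01 ± 0.18). In HCC1954 MLM it had 1837 and 1719 in LCC2 and 1373 and 1495 in LCC1, against 2712, 2565 and 2647 (-0.73 ± 0.12). In HCC1954 MRM it had 1913 and 1882 in LCC2 and 1683 and 1395 in LCC1, against 2676, 2792 and 3055 (-0.73 ± 0.13). All LCC libraries of HCC1954 were thus well below all parental ones. In CPM, reads scaled to one library total, which do not rest on the separate normalization of the lines, parental JAK2 averaged 8.47 in MLM and 5.99 in MRM in H2087, and 81.5 in MLM and 91.9 in MRM in HCC1954. The totals cover 18085 genes in H2087 and 25369 in HCC1954, so CPM is not fully comparable between the lines, and no test was made.

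TYK2, the kinase of IFNAR1, had 1034 to 1421 normalized counts in H2087 LCC in MLM, against 1100 and 1109 in parental cells (0.20 ± 0.11), and 1113 to 1287 in MRM, against 1346 and 1224 (-0.10 ± 0.09). In HCC1954 MLM it had 3264 and 3218 in LCC2 and 2170 and 2107 in LCC1, against 3493, 3701 and 3419 (-0.43 ± 0.18). In HCC1954 MRM it had 3102 and 2972 in LCC2 and 2019 and 1864 in LCC1, against 3306, 3457 and 3132 (-0.44 ± 0.20). LCC2 lay just below the parental cells and LCC1 far below.

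Counted together, the LCC and parental libraries did not overlap for 4 of the 7 members in H2087 MLM (36.4% of all tested genes), 2 in H2087 MRM (38%), 6 in HCC1954 MLM (46.9%) and 6 in HCC1954 MRM (51.6%). The medians of the 7 differences were 0.01, -0.10, -0.57 and -0.63 in that order, beside medians over all genes between -0.00 and 0.01. Scaling to equal library totals moved the differences of all genes by 0.11 in HCC1954 MLM and 0.13 in HCC1954 MRM, and there every difference below 0 kept its sign.

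**Figure D2:**
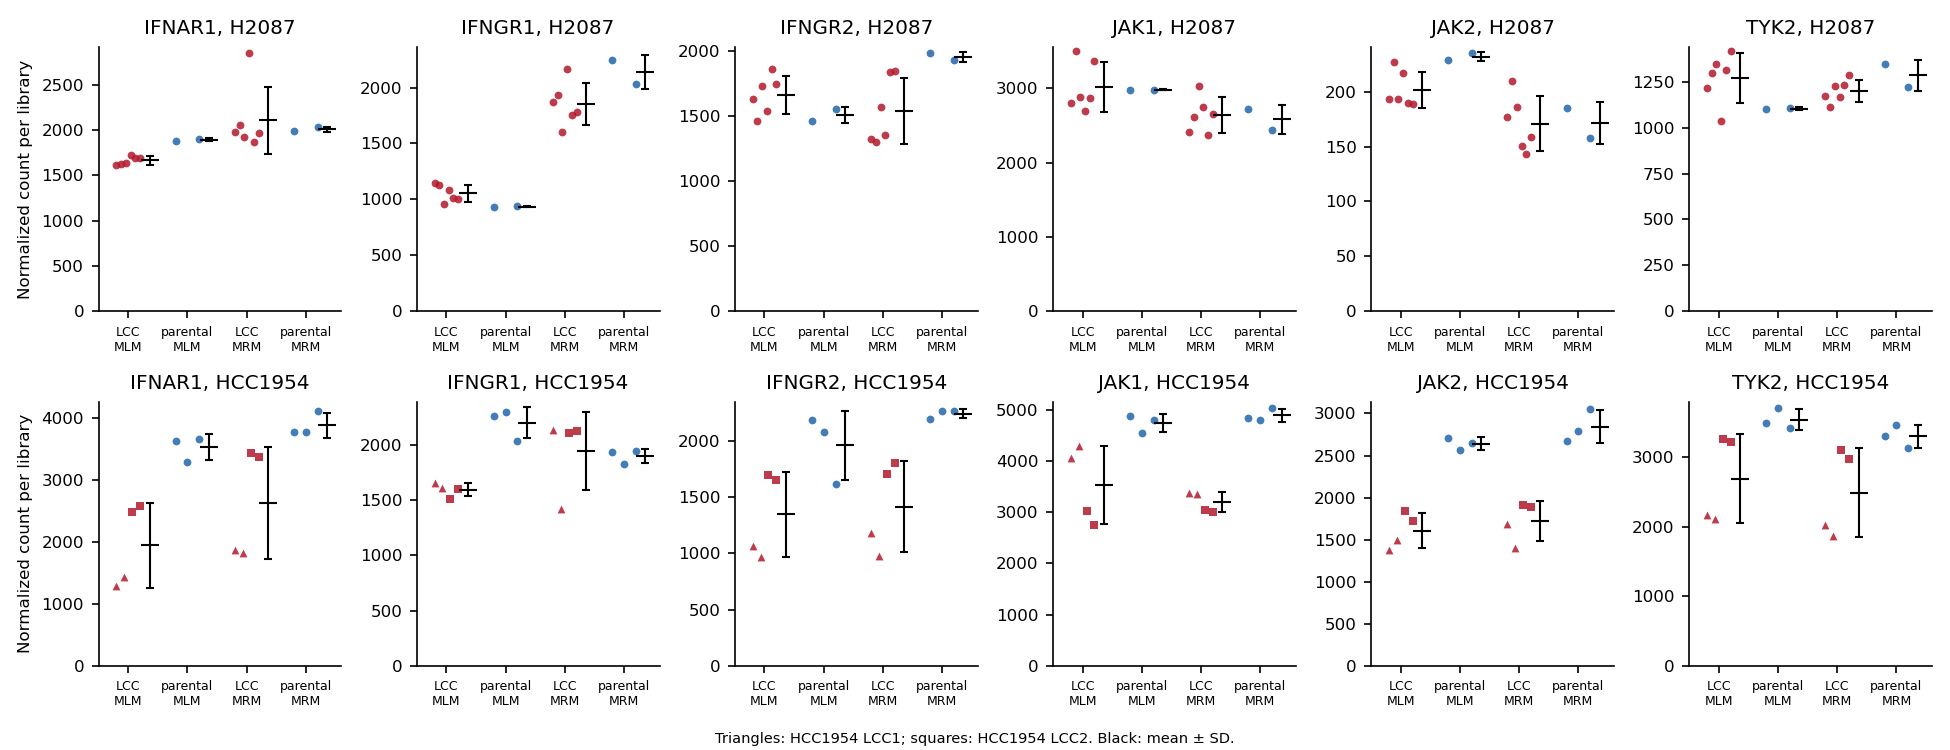
Normalized counts of each library (y axes) for the other 6 members in H2087 (top) and HCC1954 (bottom), by cell type and medium (x axes), with triangles for LCC1, squares for LCC2, and black bars for the mean ± SD. In HCC1954 the LCC2 squares lie above the LCC1 triangles for IFNAR1, IFNGR2, JAK2 and TYK2, and below them for JAK1.

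**Figure D3:**
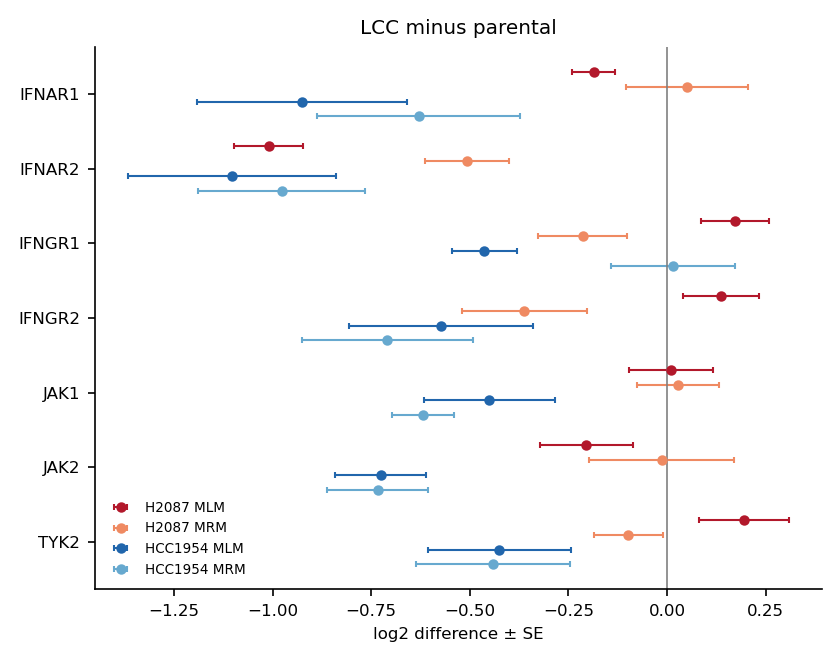
The log2 difference of LCC minus parental cells with its standard error (x axis) for each member (y axis), by line and medium. IFNAR2 lies below 0 in all 4, from -1.10 to -0.51, while the other members lie between -0.36 (IFNGR2 in MRM) and 0.20 in H2087 and, IFNGR1 in MRM aside, below 0 in HCC1954.

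Mitogen-low medium was then compared with mitogen-rich medium within each cell type, with limma on log2(value + 1), two-sided, and Benjamini-Hochberg adjustment over all genes tested; a gene was called at an adjusted p under 0.05. In H2087 LCC, 3 of the 7 members fell in MLM against MRM and 4 were not called, where 32.7% of all genes were called, 15.9% higher and 16.7% lower. IFNAR2 fell by 0.52 on the log2 scale (± 0.07 SE, adjusted p = 0.000202), IFNAR1 by 0.32 (± 0.09, adjusted p = 0.0175) and IFNGR1 by 0.81 (± 0.08, adjusted p = 1.36e-05). Each was lower in MLM in all 6 derivatives, and the groups did not overlap, as for 16.1% of all genes. The pairing by derivative left these 3 calls in place. JAK1 (0.19), JAK2 (0.25), IFNGR2 (0.12) and TYK2 (0.08) were not called, and JAK1 and JAK2 were called higher when values were scaled to equal library totals (0.29, adjusted p = 0.0166, and 0.34, adjusted p = 0.0342), a scaling that moved all genes by 0.10.

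In H2087 parental cells 5 of the 7 were called, where 72.6% of all genes were (38.2% higher and 34.4% lower), on 2 libraries per medium that differed little from each other. IFNGR1 fell to 930 and 939 in MLM, against 2250 and 2032 in MRM (-1.19 ± 0.06, limma adjusted p = 2.33e-06). IFNGR2 fell by 0.38 (adjusted p = 0.000367) and TYK2 by 0.22 (adjusted p = 0.0142), while JAK1 rose by 0.21 (adjusted p = 0.0118) and JAK2 by 0.44 (adjusted p = 0.0109). IFNAR2 gave -0.01 ± 0.06 (adjusted p = 0.854; 0.05 when scaled to library totals) and IFNAR1 -0.09 ± 0.04 (adjusted p = 0.115). Without either MLM library the calls of JAK1, JAK2 and TYK2 were lost (limma adjusted p from 0.102 to 0.131), and with all 4 H2087 groups in one fit only IFNGR1 was called.

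In HCC1954 LCC none of the 7 was called between the media by limma, none had an unadjusted p under 0.05, and edgeR called 0; 11.9% of all genes were called, 6.36% higher and 5.52% lower. With libraries of the same derivative and number paired, limma called 4402 of 15467 genes, against 1837 without pairing. The pairing changed 2 calls of members in limma: IFNAR1 (-0.44 ± 0.07, adjusted p = 0.0108) and IFNAR2 (-0.49 ± 0.09, adjusted p = 0.013) were then lower in MLM. These pairs come from only 2 derivatives, and nothing in the labels ties the numbers between media. Both genes were lower in MLM in 4 of 4 pairs of libraries. Without LCC1 library 2 in MRM, IFNGR1 was called lower in MLM (-0.41 ± 0.07, adjusted p = 0.0145). In HCC1954 parental cells, where 46.4% of all genes were called (25.5% higher and 20.9% lower), IFNAR2 was lower in MLM (1004, 1046 and 1261, against 1396, 1482 and 1367; -0.37 ± 0.10, limma adjusted p = 0.0206) and IFNGR1 higher (2265, 2300 and 2038, against 1932, 1823 and 1944; 0.21 ± 0.07, adjusted p = 0.0429). Both calls were lost without parental library 1 or 2 in MLM or any one in MRM (limma adjusted p from 0.0573 to 0.15) and kept without library 3 in MLM, where IFNAR1 was called lower too (-0.17, adjusted p = 0.0206). Scaling to equal library totals ended the IFNGR1 call (0.14, limma adjusted p = 0.127) and gave a call of IFNAR1 (-0.21, adjusted p = 0.0452). The IFNGR1 call was also lost with edgeR (adjusted p = 0.0535) and with no filter (limma adjusted p = 0.0543). Parental library 3 had 53790 summed normalized counts of 23 genes induced by type I interferon, against 180500 and 92080 in libraries 1 and 2; the part of this in the result was not tested.

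The difference of LCC from parental cells was also set side by side between the media; the members were chosen on these differences, so the values are a description with no test. In H2087 the IFNAR2 difference was lower in MLM than in MRM by 0.50 on the log2 scale (-0.50 ± 0.13 SE), and between -0.53 and -0.48 without any one of the 4 parental libraries. Parental IFNAR2 was 907 and 917 in MLM and 901 and 938 in MRM, while LCC values were 426 to 509 in MLM and 593 to 713 in MRM. The IFNGR1 difference was higher in MLM by 0.39 ± 0.14, that of IFNGR2 by 0.50 ± 0.19 and that of TYK2 by 0.29 ± 0.14. IFNAR1 gave -0.24 ± 0.17, JAK1 -0.02 ± 0.15 and JAK2 -0.19 ± 0.21. In HCC1954 the member farthest from 0 was IFNGR1 at -0.48 ± 0.18, or -0.62 without LCC1 library 2 in MRM, and IFNAR2 was at -0.13 ± 0.36. Over all genes, limma called 10.7% in H2087 (4.08% higher and 6.64% lower) and 0.156% in HCC1954 (0.0649% higher and 0.0909% lower).

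The derivatives of HCC1954 differed from each other in 5 members in MLM and 4 in MRM. In MLM, where 38.6% of all genes were called (18.6% higher and 20% lower), LCC2 was higher than LCC1 in IFNAR1 (0.90 ± 0.07, limma adjusted p = 0.000433), IFNAR2 (0.86 ± 0.08, adjusted p = 0.000712), IFNGR2 (0.72 ± 0.11, adjusted p = 0.00302) and TYK2 (0.60 ± 0.07, adjusted p = 0.0011), and lower in JAK1 (-0.53 ± 0.07, adjusted p = 0.00191). In MRM, where 35.6% were called (16.6% higher and 19% lower), the same 4 were higher: IFNAR1 by 0.88 ± 0.07, IFNAR2 by 0.70 ± 0.08, IFNGR2 by 0.71 ± 0.11 and TYK2 by 0.65 ± 0.07, with limma adjusted p from 0.00083 to 0.00395. JAK1 in MRM (-0.15, adjusted p = 0.136), JAK2 in MLM (0.31, adjusted p = 0.0545) and in MRM (0.31, adjusted p = 0.0585), and IFNGR1 (-0.07 in MLM, 0.08 when scaled to library totals, and 0.28 in MRM) were not called. Each derivative is 1 line with 2 libraries per medium. IFNAR1, IFNAR2 and IFNGR2 lie next to each other on chromosome 21, and the differences of their neighbours between the derivatives are given below. The median over the 7 was 0.60 in MLM and 0.65 in MRM, against -0.00 and 0.01 over all genes. Scaling to library totals moved all genes by 0.14 in both media and left these calls in place, with JAK2 called as well (0.45 in both). Without LCC1 library 2 in MRM, which leaves 1 LCC1 library in that medium, the 4 higher members gave 0.86, 0.67, 0.57 and 0.59 in MRM in the order above. JAK2 then gave 0.17 and JAK1 -0.16 in MRM. IFNGR1 in MRM rested on the LCC1 libraries: it gave -0.01 without library 2 and was called higher in LCC2 without library 1 (0.58, limma adjusted p = 1.46e-07).

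**Figure D4:**
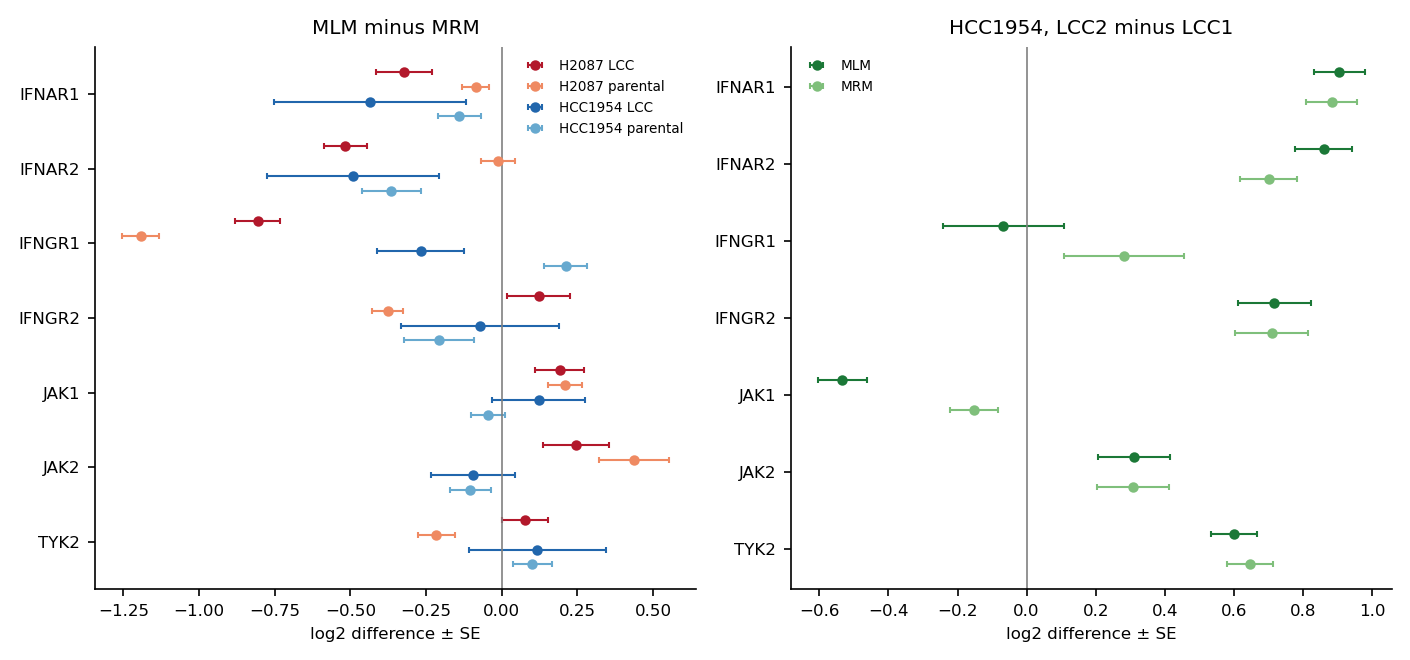
The log2 differences with their standard errors (x axes) of MLM minus MRM by line and cell type (left) and of LCC2 minus LCC1 by medium (right), for each member (y axes). IFNGR1 in H2087 has the values farthest from 0 on the left, -0.81 in LCC and -1.19 in parental cells; on the right IFNAR1, IFNAR2, IFNGR2 and TYK2 lie between 0.60 and 0.90 in both media.

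Interferon-stimulated genes ran the other way between the derivatives. Of all genes, 20% were lower in LCC2 than in LCC1 in MLM and 19% in MRM by limma. Of 23 genes induced by type I interferon, 22 were tested, and 14 were lower in MLM and 12 in MRM, with 0 higher in either (median difference -2.36 and -2.02). Their summed normalized counts were 77600 and 67200 in LCC2, against 253300 and 310500 in LCC1 in MLM, and 27990 and 28000, against 195300 and 49180, in MRM. LCC1 library 2 in MRM, at 49180, was much lower than its partner in these genes while its IFNAR2 (552 against 574) and IFNAR1 (1822 against 1876) were near it. Without that library 22 of 23 were lower and 1 higher in MLM, where 68.3% of all genes were then called, and 21 were lower in MRM, where 59.3% were. ISG15, an antiviral ubiquitin-like protein, gave -2.85 ± 0.58 in MLM and -3.53 ± 0.58 in MRM.

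Of 13 genes induced by interferon gamma, 8 were lower in LCC2 in MLM, where 20% of all genes were lower by limma. In MRM 2 of the 13 were lower, where 19% of all genes were, and 0 were higher in either medium. Their median difference was -1.21 in MLM and -0.27 in MRM. Without LCC1 library 2, which leaves 1 LCC1 library in MRM, the median in MRM was -0.92. GBP1, an interferon-induced GTPase, gave -1.26 ± 0.21 in MRM, and the chemokine CXCL10 -2.45 ± 0.68 in MLM.

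Several feedback genes were lower in LCC2 as well. Of 14 negative regulators, 2 were higher and 5 lower in LCC2 in MLM, where 18.6% of all genes were higher and 20% lower. In MRM 1 was higher and 4 lower, where 16.6% of all genes were higher and 19% lower. The list's median differences were -0.15 and -0.08. SOCS1, which blocks JAK kinase activity, was lower by limma (-1.56 ± 0.26 and -1.50 ± 0.26), as were SOCS3 (-2.04 ± 0.24 and -1.61 ± 0.24) and USP18, which binds IFNAR2 and dampens its signalling (-2.51 ± 0.55 and -1.84 ± 0.55). The phosphatase PTPN2 was higher (0.38 ± 0.09 and 0.83 ± 0.09). Among 7 interferon regulatory factors 5 were lower in MLM and 3 in MRM, and 0 higher in both; IRF1 gave -1.34 ± 0.24 in MLM. IL10RB, the shared chain of the IL10 family and interferon lambda receptors, was higher in LCC2 (0.78 ± 0.18 and 0.85 ± 0.18). It was among 3 higher and 13 lower of 24 tested receptor chains in MLM and 4 higher and 7 lower in MRM. Of 3 tested interferon ligands 2 were lower in both media; IFNL1 had 16 and 1 normalized counts in LCC2, against 93 and 104 in LCC1 in MLM. Without LCC1 library 2 in MRM, 7 of 7 interferon regulatory factors were lower in both media, 7 of 14 negative regulators in both, and 16 and 12 of 24 receptor chains in MLM and MRM, where 68.3% and 59.3% of all genes were then called.

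Between LCC and parental cells, with the 2 HCC1954 derivatives pooled as LCC, the downstream genes were mostly not called. Of the 8 STATs with IRF9 in H2087, limma called 0 in either medium, 2 had an unadjusted p under 0.05 in each, and edgeR called 0, where 13.7% of all genes in MLM (4.94% higher and 8.77% lower) and 14.6% in MRM (8.76% higher and 5.83% lower) were called. In HCC1954 MLM (36.5% of all genes called, 17.6% higher and 18.9% lower) 1 was higher and 2 lower, and in MRM (38.4%, 19.2% higher and 19.3% lower) 2 were lower. STAT6, which carries the IL4 and IL13 signal, had 119 and 116 normalized counts in LCC2 and 38 and 46 in LCC1, against 2973, 3053 and 2224 in parental cells in MLM (-5.26 ± 0.44, limma adjusted p = 0.000263). In MRM it had 128 and 112 in LCC2 and 76 and 49 in LCC1, against 3070, 3167 and 2992 (-5.15 ± 0.31, adjusted p = 7.06e-05). Every LCC library was thus far below every parental one, while H2087 STAT6 was 5226 to 6664 in LCC and 5397 and 5408 in parental cells in MLM.

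STAT5A was also lower in HCC1954 LCC (-0.65 ± 0.13 in MLM and -1.12 ± 0.19 in MRM), and STAT4 was higher in MLM (1.34 ± 0.27, limma adjusted p = 0.00816). Of the 14 negative regulators, 1 was higher and 3 lower in HCC1954 MLM and 1 higher and 2 lower in MRM. The phosphatase PTPN1, which acts on JAK2 and TYK2, was higher (0.66 ± 0.10 and 0.77 ± 0.07), and PIAS1 and PIAS3, which inhibit STATs, were lower (-0.54 ± 0.12 and -0.53 ± 0.08 for PIAS1; -0.71 ± 0.09 and -0.87 ± 0.18 for PIAS3). In H2087, 1 was called in each medium, PTPN6 in MLM (0.46 ± 0.10, adjusted p = 0.0207) and SOCS3 in MRM (0.99 ± 0.18, adjusted p = 0.00942), both higher. The medians of this list were 0.04 and -0.06 in H2087 and -0.13 and -0.30 in HCC1954, in MLM and MRM.

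Of other receptor chains that use these kinases, some were called in each comparison, to be read against the shares of all genes given above, which in MLM were 8.77% lower in H2087 and 18.9% lower in HCC1954. In H2087, 2 of 20 tested were lower in MLM, IL4R (-0.69 ± 0.08) and IL12RB2 (-0.88 ± 0.24), and 3 were higher and 2 lower of 19 in MRM. The higher ones were IL6ST (0.66 ± 0.10), LIFR (1.33 ± 0.19) and OSMR (0.71 ± 0.09), chains of the IL6 family receptors. In HCC1954, 5 of 24 were lower in MLM, and 9 of 23 lower and 1 higher in MRM. PRLR, the prolactin receptor, gave -3.02 ± 0.37 in MLM and -1.75 ± 0.46 in MRM, IL15RA -1.64 ± 0.37 and -2.0 ± 0.29, and IL13RA1 -0.74 ± 0.14 and -0.94 ± 0.23. The list's medians were -0.17 and -0.15 in H2087 and -0.31 and -0.38 in HCC1954.

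Of the genes induced by type I interferon, limma called 0 of 23 in H2087 MLM, with 2 at an unadjusted p under 0.05 and 0 by edgeR, and in MRM 1 was higher and 4 lower. HERC5 (-1.37 ± 0.29), CMPK2 (-1.79 ± 0.40) and IFI6 (-0.82 ± 0.23) were lower and IFI27 higher (1.81 ± 0.40). Of all genes in HCC1954, 17.6% were higher and 18.9% lower in MLM, and 19.2% higher and 19.3% lower in MRM. Of the induced genes, 1 of 23 was higher in MLM and 2 of 22 in MRM, among them MX1, an antiviral GTPase (1.45 ± 0.25 and 0.99 ± 0.23). These counts pool derivatives that lay apart. In MLM the summed counts were 253300 and 310500 in LCC1 and 77600 and 67200 in LCC2, against 180500, 92080 and 53790 in parental cells. In MRM they were 195300 and 49180 in LCC1 and 27990 and 28000 in LCC2, against 49050, 50170 and 54570. The part of this in the calls was not tested. Of 13 tested genes induced by interferon gamma, 3 were higher in HCC1954 MLM and 3 lower in MRM; without LCC1 library 2 there, 3 were higher and 3 lower. IDO1, a tryptophan-degrading enzyme, was among the lower ones in MRM (-3.85 ± 0.36). In H2087 limma called 0 of 11 in MLM, with 0 at an unadjusted p under 0.05 and 0 by edgeR, and 1 lower in MRM, ICAM1 (-0.98 ± 0.17). Interferon ligands were tested for 1 gene in H2087 MLM and 2 in HCC1954, of which 1 was higher in HCC1954 MLM; without parental library 3, 0 of 3 were called. Of 7 interferon regulatory factors, 1 was lower in each medium of H2087, 2 were higher in HCC1954 MLM, and 1 was higher and 3 lower in HCC1954 MRM, IRF8 being higher in both media (1.78 ± 0.20 and 2.62 ± 0.48) and IRF1 lower in MRM (-1.23 ± 0.21).

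Between the media, 8 of 19 other receptor chains were lower and 0 higher in MLM in H2087 LCC, where 16.7% of all genes were lower and 15.9% higher, with IL15RA at -1.03 ± 0.08 (limma adjusted p = 5.02e-06), IL13RA1 at -1.01 ± 0.17 and OSMR at -0.81 ± 0.12; the list's median was -0.42. In H2087 parental cells 8 were lower and 3 higher, where 34.4% of all genes were lower and 38.2% higher, with IL15RA at -1.47 ± 0.05 and IL10RB at -0.98 ± 0.06. In HCC1954 parental cells 8 of 21 were lower and 2 higher, where 20.9% of all genes were lower and 25.5% higher; PRLR rose by 1.94 ± 0.16 and LEPR, the leptin receptor, fell by 1.45 ± 0.16. In HCC1954 LCC limma called 0 of 24, 2 had an unadjusted p under 0.05 and edgeR called 0. Of the genes induced by type I interferon, 2 of 23 fell in H2087 LCC, 12 rose and 8 fell in H2087 parental cells, 1 of 22 rose in HCC1954 LCC and 5 of 22 rose in HCC1954 parental cells. Without parental library 3 in MLM, 19 of the 22 rose in HCC1954 parental cells, where 68.7% of all genes were then called. SOCS3, a feedback inhibitor of JAK kinases, fell by 1.0 in H2087 LCC (adjusted p = 0.00702) and rose by 0.77 in H2087 parental cells (adjusted p = 2.9e-05), and its difference of LCC from parental cells (the LCC effect) differed between the media (limma interaction -1.76 ± 0.44, adjusted p = 0.0206).

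The neighbours of IFNAR2 on chromosome 21 were read beside it; IFNAR2 was chosen for its difference and they were not, so the values are set side by side only. The 10 tested genes on each side were read in RefSeq order, 18 of them besides the members IFNAR1 and IFNGR2. The median log2 difference of those 18 between LCC and parental cells was -0.10 in H2087 MLM and -0.18 in H2087 MRM, and -0.27 in HCC1954 MLM and -0.36 in HCC1954 MRM. By limma 4 and 1 of the 18 were lower in H2087 MLM and MRM, where 8.77% and 5.83% of all genes were lower. In HCC1954, 5 and 8 were lower, where 18.9% and 19.3% of all genes were. In HCC1954 MRM 1 was higher, where 19.2% of all genes were. The genes on either side were SYNJ1, a lipid phosphatase of synaptic vesicles (0.00 and -0.12 in H2087, -0.51 and -0.42 in HCC1954), and IL10RB (0.11 and -0.17 in H2087, -0.29 and -0.38 in HCC1954). Of all 20 neighbours, 2 had every LCC library below every parental one in all 4 comparisons, as had 0.96% of all genes tested in them. The 2 neighbours were GART, a purine synthesis enzyme, and ITSN1, an endocytic adaptor. ITSN1 gave -0.70 in H2087 MLM and -0.75 in HCC1954 MRM. Between the HCC1954 derivatives, genes around IFNAR2 also differed (LCC2 minus LCC1, in MLM and MRM). IL10RB gave 0.78 and 0.85, TMEM50B 0.29 and 0.41, DNAJC28 1.05 and 1.01, and ITSN1 0.64 and 0.29, all called higher by limma. SYNJ1 gave -0.21 and 0.42, GART -0.20 and -0.49 and, farther off, BACH1 -0.93 and -0.60. Whether the members moved with their neighbours was not tested.

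**Figure D5:**
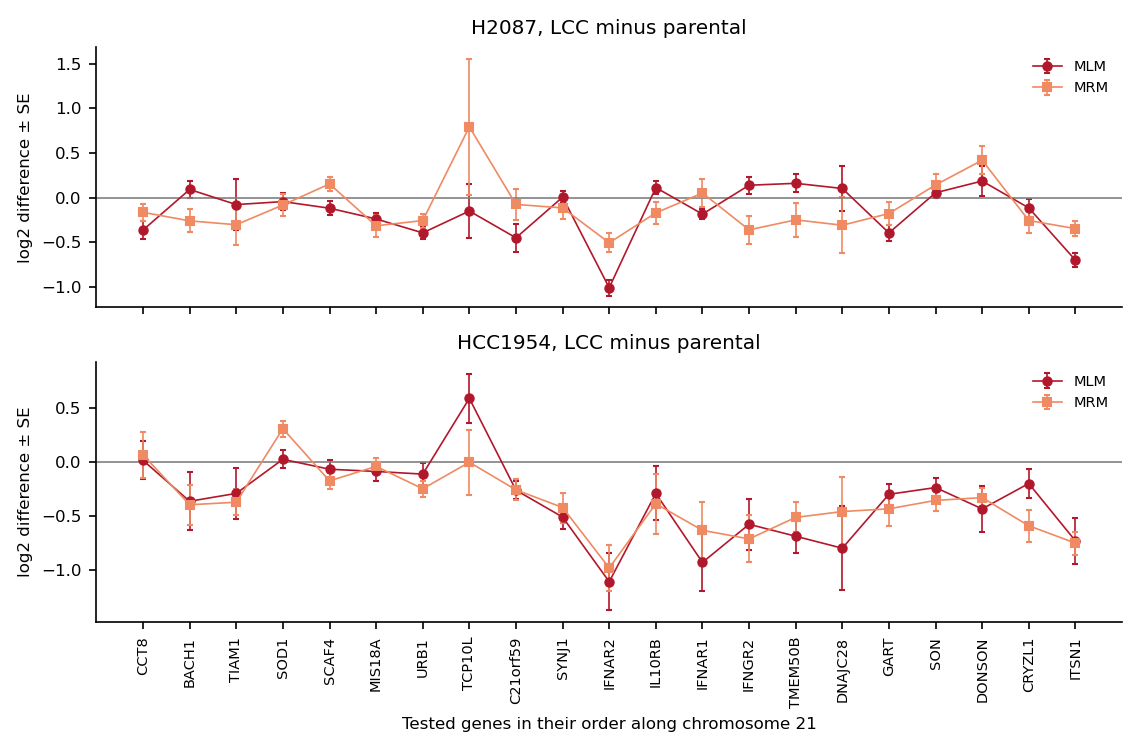
The log2 difference of LCC minus parental cells with its standard error (y axes) for IFNAR2 and 10 tested genes on each side in their order along chromosome 21 (x axis), in H2087 (top) and HCC1954 (bottom), by medium. In H2087 IFNAR2 stands below its neighbours at -1.01 in MLM, and 12 of the 20 neighbours lie below 0 in MLM and 15 in MRM. In HCC1954, 17 of the 20 lie below 0 with it in MLM and 18 in MRM. The lowest of them there are IFNAR1 at -0.93 in MLM and ITSN1 at -0.75 in MRM.

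Across the libraries of a line, IFNAR2 ran with different members. As a description over 14 HCC1954 libraries, which fall into groups of cell type, derivative and medium, Pearson's r of IFNAR2 with IFNAR1 was 0.97, with JAK2 0.93, with IFNGR2 0.90, with TYK2 0.80, with IFNGR1 0.55 and with JAK1 0.45. Over 16 H2087 libraries r was 0.57 with IFNAR1, 0.45 with IFNGR1, 0.00 with IFNGR2, -0.14 with JAK2, -0.32 with TYK2 and -0.40 with JAK1. The genes most like IFNAR2 by the mean r of both lines, among 9573 genes, were C20orf96 (0.92), LRRC8D, a subunit of volume-regulated anion channels (0.87), SRD5A3, an enzyme of dolichol synthesis (0.87), MIPOL1 (0.87) and DEF6, a guanine nucleotide exchange factor (0.87). IFNAR1 ranked 53 in that order.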

How the data were processed

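RNA sequencing values of 30 libraries were used; 12 chromatin samples and H2087 parental library 3 in MLM were not analysed here. In the deposited tables each library has a normalized signal for each gene, as column names in the file headers show. Tools named in the processing notes of the submitters are HTSeq 0.6.1p1, DESeq2 1.8.1 and Bowtie2 2.2.4, and the builds are GRCh37 and hg19, with no role stated. Every deposited signal value was a whole number of reads divided by a library factor (100% whole within 0.01 reads), and reads were recovered from it. Both tables of a line share 1 normalization, the lines do not, so no test was made between lines. Whether counting used strand is not given in the sources used here, so IFNAR2 and transcripts overlapping it cannot be fully separated.

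Differences were tested with limma 3.58.1 in R 4.3.3 (trended prior variance, two-sided) on log2(value + 1) for genes with a mean of at least 10, with Benjamini-Hochberg adjusted p over all genes tested and a threshold of 0.05. LCC were compared with parental cells per line and medium, MLM with MRM per cell type, and LCC2 with LCC1 in a fit of the 8 HCC1954 LCC libraries; the difference of the LCC effect between media used all libraries of a line. Log2 differences understate changes of low genes. The method was tested on simulated data. Alternatives were scaling to library totals, pseudocount 10, no filter, a mean of at least 100, edgeR 4.0.16 (quasi-likelihood) on recovered reads, blocks, all 4 groups in one fit and leaving out each library. The list counts without the HCC1954 libraries that stood apart were added after seeing the data. Libraries of one derivative in both media are the same cell line, and the deviations of same-named libraries from their group means correlated at 0.415 to 0.773 in H2087 LCC and 0.534 to 0.758 in HCC1954 LCC, so these were treated as paired in the block. In HCC1954 LCC the pairs follow derivative and number, and 3 of 4 MLM libraries and 2 of 4 MRM libraries correlated best with their own name.

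The members and gene lists were chosen with earlier results of these data known. Named beside the 7 members were up to 4 called genes per list, comparison and direction with the largest difference and a mean of at least 50, of which a subset is printed, the 10 tested neighbours on each side of IFNAR2, and the 5 genes most like it with a mean of at least 100. STAT6 and IFNL1 values by library were added after their differences were seen. Values of some listed genes are not reported here.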

Additional observations from a re-analysis of the deposited data

Results flagged for a closer look

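Each member was checked within each LCC group, of 6 libraries in H2087 and 4 in HCC1954. Of these 28 checks, 3 found a library far from the others, where chance flags about 1 in 20. The checks share libraries, so they are not independent. IFNAR2 was 508.8 normalized counts in H2087 LCC1 in MLM, above the other 5 derivatives. IFNAR1 was 2856 in H2087 LCC4 in MRM, above the other 5. IFNGR1 was 1418 in HCC1954 LCC1 library 2 in MRM, below the other 3, in a library whose summed type I interferon induced genes were 49180 against 195300 in its partner.

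The difference of LCC from parental cells in IFNAR2 in H2087 was -0.50 in MLM minus MRM on the log2 scale; IFNAR2 was chosen on these differences, so this is a description with no test, and it lay between -0.53 and -0.48 without any one of the 4 parental libraries. IFNGR1 in MLM was higher in every LCC library than in every parental one in H2087 (0.17) and lower in HCC1954 (-0.46). IFNGR1 in parental cells was lower in MLM than in MRM in H2087 (-1.19) and higher in HCC1954 (0.21). These differences between the lines were not tested, since the lines were normalized separately.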

How the results depend on the processing

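The IFNAR2 difference of LCC from parental cells stayed below 0 under every alternative, from -1.07 to -0.99 in H2087 MLM, -0.60 to -0.48 in H2087 MRM, -1.26 to -0.96 in HCC1954 MLM and -1.11 to -0.85 in HCC1954 MRM. No called member changed direction. Of the members' tests 840 kept their side of the threshold, 31 lost a call and 25 gained one, and the cause was not tested. These numbers include the LCC effect, for which the members' values are a description only. Depth limits JAK2 in H2087 most, with 67 reads at the lowest.

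With a replicate block, limma called 3602 genes between HCC1954 LCC and parental cells in MLM (5541 without) and 2310 in MRM (5932 without). It called 4402 of 15467 between the media in HCC1954 LCC (1837 without), 3426 for the H2087 LCC effect (1344 without) and 116 for the HCC1954 LCC effect (24 without). Between media, the members called were 2 of 7 in HCC1954 LCC and 1 in HCC1954 parental cells, where 46.4% of all genes were called without the block. Parental libraries share only a number: same-numbered ones correlated at 0.139 in H2087 and -0.094 to 0.264 in HCC1954, where 2 of 3 in each medium correlated best with their own number, and HCC1954 LCC with parental at -0.388 to 0.372. The LCC effect aside, the block changed no other call of a member. With all 4 groups of a line in one fit, 4761 genes and 1 member were called between media in H2087 parental cells, 3546 genes in HCC1954 LCC, and 3784 genes and 0 members in HCC1954 parental cells. Scaling to library totals gave 5 members between media in H2087 LCC. Between media in HCC1954 parental cells, no filter and edgeR each gave 1 member. On the recovered reads edgeR called 1819 and 1690 genes between LCC and parental cells in H2087 MLM and MRM, 5556 and 5962 in HCC1954, 4286 and 9344 between media in H2087 LCC and parental cells, 1830 and 7031 in HCC1954, 1345 for the H2087 LCC effect, and 5869 and 5668 between LCC2 and LCC1 in MLM and MRM, all within 1.5 times the limma count. The HCC1954 LCC effect gave 13 genes with no filter, 15 with a mean of at least 100 and 12 with edgeR.

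Leaving out 1 library at a time, the genes called between LCC and parental cells numbered 113 to 2448 in H2087 MLM, 141 to 2288 in H2087 MRM, 3660 to 5190 in HCC1954 MLM and 3669 to 7431 in HCC1954 MRM. Between the media they numbered 592 to 2099 in HCC1954 LCC and 4396 to 10248 in HCC1954 parental cells, with 0 to 1 and 0 to 3 members, and 2 to 6 members in H2087 parental cells. The LCC effect gave 409 to 1633 genes in H2087 and 0 to 50 genes in HCC1954. LCC2 against LCC1 gave 2863 to 10558 genes in MLM, and 1919 to 10135 genes and 4 to 7 members in MRM. The lowest counts in H2087 came without a parental library, and the highest between HCC1954 derivatives without either LCC1 library in MRM. Member counts for the LCC effect are not reported here, since the members were chosen on the differences it compares.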
